A study of Mus musculus with 8 samples.

Results

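This report describes the lung RNA of mice given lipopolysaccharide (LPS) together with YW3-56, an inhibitor of peptidylarginine deiminase 4 (PAD4), beside that of control mice. The study calls YW3-56 a pan PAD inhibitor, because it also inhibited the other active deiminases of the family, to different degrees. Of the 8 libraries in the series, 5 belong to this comparison by the treatment recorded for them: the 3 control mice (numbers 1, 2 and 4) and the 2 mice given both compounds (numbers 2 and 5). The 3 libraries of mice given LPS alone (numbers 1, 6 and 7) were used to sort the changes and to estimate variation. All mice were female C57BL/6J animals of 6 to 8 weeks. Control mice received the solvent into the tail vein and saline into the peritoneum. Dual-treated mice received YW3-56 at 10 mg/kg and, 0.5 h later, LPS at 35 mg/kg, the dose that the LPS mice received into the peritoneum without inhibitor. Lung tissue was taken about 24 h later. The study's methods describe 3 mice per group for sequencing, while its figure and the labels give 2 dual-treated libraries. The numbers only name the mice, so control mouse 2 and dual mouse 2 are different animals.

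LPS, the main lipid of the outer membrane of Gram-negative bacteria, is sensed through Toll-like receptor 4 and sets off the release of cytokines, the making of acute-phase proteins and the entry of blood leukocytes into the lung. PAD4 turns arginine into citrulline in histones and other proteins, and this step opens chromatin when neutrophils cast it out as extracellular traps.

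Levels are given as counts per 1000000 (CPM), normalized for library composition, for control mice 1, 2 and 4 and then for dual mice 2 and 5. Change is the log2 fold change (log2FC) with its standard error (SE). P values come from the quasi-likelihood test of edgeR, written "by edgeR", with Benjamini-Hochberg adjustment over all 18560 tested genes. A gene was called changed at an adjusted p below 0.05 and an absolute log2FC above 1. The 5 libraries held 19061949, 19796242 and 20527836 counts (control) and 19875939 and 20908608 counts (dual). All 5 carried the genes of lung: surfactant protein C (Sftpc) of alveolar type 2 cells at 24220, 19570 and 24540 CPM in control and 8528 and 17890 CPM in dual mice, Ager of alveolar type 1 cells at 2336, 2186 and 2338 and 979 and 1411 CPM, and the club-cell gene Scgb1a1 at 29410, 36840 and 34430 and 22670 and 25100 CPM. The ranges of the groups did not overlap for these 3 genes, with the dual mice lower, but none was called changed. The endothelial cadherin Cdh5 (590, 659 and 737 and 510 and 590 CPM), the ciliated-cell regulator Foxj1 (98, 148 and 131 and 110 and 93.7 CPM) and the collagen gene Col1a1 (129, 148 and 142 and 140 and 127 CPM) were present in every library as well.

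Dual treatment changed 1327 of 18560 tested genes (7.15%), 974 higher (5.25%) and 353 lower (1.90%) than control. The median log2FC of all tested genes was 0.004. In 1319 of the 1327 called genes the values of both dual mice lay outside the range of the 3 control mice, as they did for 9696 of all 18560 tested genes (52.2%), and in 974 called genes both mice lay beyond a 2-fold change. With the same controls, LPS alone raised 3318 genes (17.9%) and lowered 3961 (21.3%). Tested directly against LPS, dual treatment had 3666 genes higher (19.8%) and 2598 lower (14.0%). Comparisons with the same control mice share their errors, so the counts below are given side by side.

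**Figure D1:**
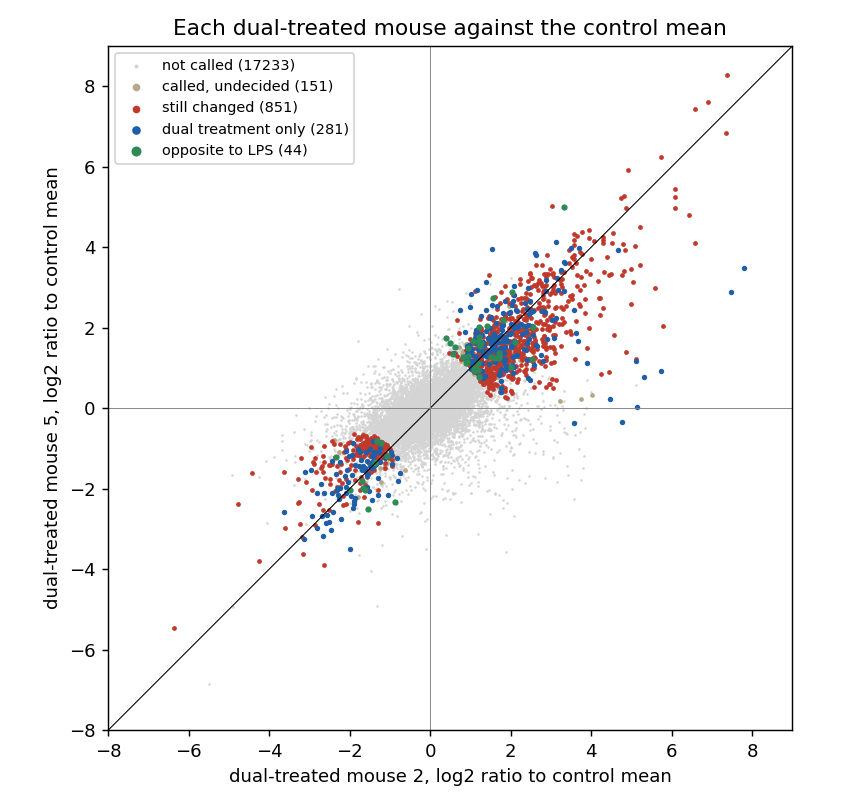
Log2 fold change against the mean of the 3 control mice in dual mouse 2 and in dual mouse 5, for all tested genes. Colors mark the class of a called gene: still changed, changed only under dual treatment, opposite to LPS, or undecided. Each color holds genes called higher and genes called lower.

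A called gene was sorted as still changed if LPS alone also changed it in the same direction, and as changed only under dual treatment if LPS alone did not change it and the direct test of dual treatment against LPS called the same direction. Still higher were 636 genes (3.43% of all tested genes), 65.3% of the 974. Of these, 183 were called lower than in LPS mice, 56 were called higher than in LPS mice and 397 were not called different from LPS mice. Their median log2FC was 2.05 in dual and 2.49 in LPS mice. Still lower were 215 genes (1.16%), 60.9% of the 353, with 78 called nearer to control than in LPS mice, 2 beyond LPS and 135 not called different. Their median log2FC was -1.31 in dual and -2.20 in LPS mice. Only under dual treatment, 199 genes were higher (1.07%) and 82 lower (0.442%). The medians of these genes were 1.91 in dual against 0.10 in LPS mice for the higher ones, and -1.76 against -0.05 for the lower ones. In the opposite direction to LPS were 33 higher and 11 lower genes, and 106 higher and 45 lower genes stayed undecided because the direct test did not separate them from LPS.

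The dual mice differed in how far they had moved. With mouse 2 as the only dual library 1831 genes were called (1120 higher, 711 lower), and with mouse 5 as the only one 752 (596 higher, 156 lower). A lone library has no replicate, so it is assumed to vary as the other groups do. There were 623 genes called in the same direction with each mouse alone (502 higher, 121 lower) and 0 called in opposite directions. Each of the 623 was also called with both mice by edgeR, and 0 genes called with both mice were called in the opposite direction by DESeq2. All these fits use the same control counts, so their agreement is not independent. The typical log2 difference between the dual mice, as root mean square over all genes, was 0.651, against 0.46 to 0.502 between pairs of control mice and 0.578, 0.753 and 0.858 between pairs of LPS mice. Dual mouse 2 stood 0.917 to 0.948 from the control mice and dual mouse 5 0.751 to 0.799. Of the still higher genes 449 were farther from control in mouse 2 and 187 in mouse 5. Of the still lower genes 182 were farther in mouse 2 and 33 in mouse 5. Of the genes changed only under dual treatment, 104 of the 199 higher ones were farther in mouse 2 and 95 in mouse 5, and 45 of the 82 lower ones in mouse 2 and 35 in mouse 5.

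Genes of mature neutrophils and their later granules made up a large block that remained raised. Of 24 tested genes, 19 were higher and 0 lower, 16 of them still higher and 3 only under dual treatment, with a median log2FC of 3.16 in dual and 2.99 in LPS mice (20 higher with dual mouse 2 left out, 19 higher and 1 lower with dual mouse 5 left out). The summed level of the list was 706, 599 and 582 CPM in control, 18100, 19670 and 13910 CPM in LPS and 7305 and 4526 CPM in dual mice, below all LPS mice, and its most abundant gene per length was Lcn2. The direct test called 9 genes of the list higher and 8 lower than in LPS mice. S100a8, a subunit of calprotectin, stood at 45.3, 26.8 and 27.3 CPM in control and 511 and 712 CPM in dual mice (log2FC 4.21 ± 0.30 SE, adjusted p = 4.5e-05 by edgeR), and its partner S100a9 at 98.3, 55.5 and 57.3 and 832 and 1171 CPM (log2FC 3.83 ± 0.30 SE, adjusted p = 7.73e-05 by edgeR). Both dual mice lay more than 5-fold above every control mouse for these genes. The direct test did not call S100a8 different from LPS mice, where it stood at 576, 846 and 520 CPM (log2FC -0.08 ± 0.28 SE, adjusted p = 0.81 by edgeR). Slfn4, a Schlafen gene of immature myeloid cells, rose from 5.29, 2.91 and 2.81 to 257 and 163 CPM (log2FC 5.84 ± 0.29 SE, adjusted p = 9.39e-06 by edgeR), and the decoy receptor for interleukin 1, Il1r2, from 1.66, 1.69 and 1.66 to 65.3 and 39.8 CPM (log2FC 4.97 ± 0.25 SE, adjusted p = 9.39e-06 by edgeR). Both stayed below their level in LPS mice. Retnlg, a secreted resistin-like protein, went the other way, at 30.3, 11.6 and 13.8 CPM in control, 94.3, 104 and 58.7 CPM in LPS and 221 and 261 CPM in dual mice (log2FC 3.70 ± 0.38 SE, adjusted p = 0.00034 by edgeR), so that the dual mice had no overlap with either group. The formyl peptide receptor Fpr1 (13.9, 9.9 and 11.7 and 51.9 and 64.9 CPM, log2FC 2.31 ± 0.28 SE, adjusted p = 0.000747 by edgeR) and the membrane protein Mcemp1 (16.9, 13.9 and 17.9 and 40.7 and 51 CPM, log2FC 1.496 ± 0.21 SE, adjusted p = 0.00153 by edgeR) were higher only under dual treatment. Primary granule genes, made by neutrophil precursors in the marrow, had 1 of 5 tested genes higher, the protease Prtn3 (1.62, 2.21 and 1.33 and 3.77 and 4.26 CPM, log2FC 1.22 ± 0.26 SE, adjusted p = 0.0138 by edgeR), and 0 without dual mouse 2 (log2FC 1.28), dual mouse 5 (1.10), control mouse 1 (1.18) or control mouse 4 (1.04). In bulk tissue fewer or more cells of a type and less or more RNA per cell cannot be told apart.

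The stefin A genes, a family of small inhibitors of cathepsins in a cluster on chromosome 16, were raised in part beyond their LPS level, with 5 called higher and 1 called lower than in LPS mice. The 9 tested genes of 11 had a median log2FC of 5.52. This did not depend on the 4 genes with at most 3 counts in every mouse of a group. Of the 9 genes, 7 were higher and 0 lower, all 7 still higher, and 7 with either dual mouse left out. Their sum was 3.28, 1.41 and 1.84 CPM in control, 33.3, 59.9 and 36.8 CPM in LPS and 101 and 154 CPM in dual mice. Stfa2l1 measured 1.13, 0.375 and 0.506 CPM in control and 21.4 and 29.8 CPM in dual mice (log2FC 5.26 ± 0.44 SE, adjusted p = 0.000121 by edgeR), Stfa1 0.147, 0.0469 and 0.414 and 7.94 and 11.3 CPM (log2FC 5.52 ± 0.50 SE, adjusted p = 0.000183 by edgeR) and Cstdc4 0.881, 0.141 and 0.184 and 26.7 and 37.7 CPM (log2FC 6.32 ± 0.53 SE, adjusted p = 0.000116 by edgeR). The 3 genes Stfa2, Stfa3 and Cstdc5 had no count in any control mouse. They stood at 16.4 and 31, 11.8 and 19.2 and 9.48 and 17.3 CPM in dual mice 2 and 5 and at 0.653, 2.54 and 1.45, 0.593, 1.1 and 0.837 and 0.178, 0.809 and 0.726 CPM in LPS mice 1, 6 and 7. The dual mice were above all LPS mice for each of these genes, and the direct test called all 3 higher than in LPS mice (Stfa2: log2FC 3.93 ± 0.50 SE, adjusted p = 0.000382 by edgeR). Stfa2 lies at chr16:36224305-36241288 on the minus strand (GRCm39). No window of 150 bases in the transcripts of Stfa1, Stfa2, Stfa3, Stfa2l1, Cstdc4 or Cstdc5 occurred in the transcript of another gene, but how reads with several positions were counted is not given in the sources used here.

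**Figure D2:**
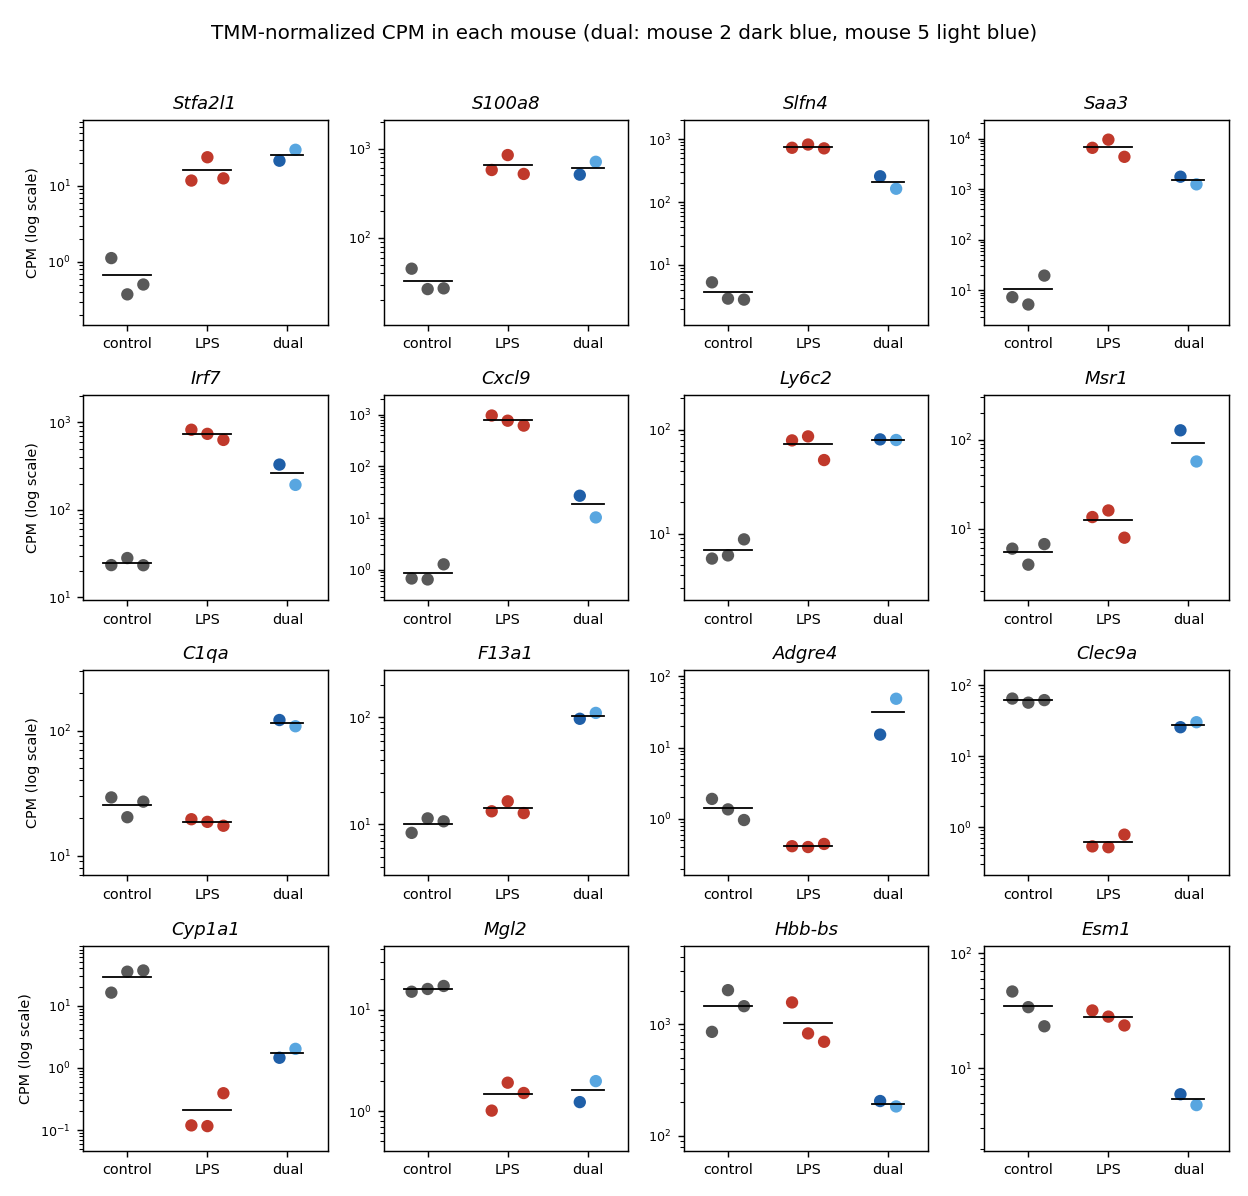
Level of 16 genes in every mouse as CPM, with the 3 control mice and the 2 dual mice as separate points. LPS mice are drawn for comparison.

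All 11 genes of the phagocyte oxidase and the Fc receptors were higher, with a median log2FC of 2.14 in dual and 1.84 in LPS mice, and all 11 remained so with either dual mouse left out. Their sum was 329, 244 and 306 CPM in control, 1026, 1177 and 737 CPM in LPS and 1131 and 1197 CPM in dual mice, with Fcer1g the most abundant per length. The catalytic subunit Cybb stood at 37.1, 27 and 36.2 and 112 and 144 CPM (log2FC 1.93 ± 0.25 SE, adjusted p = 0.0011 by edgeR), the shared Fc receptor chain Fcer1g at 36.2, 19.8 and 28.5 and 123 and 164 CPM (log2FC 2.35 ± 0.29 SE, adjusted p = 0.000921 by edgeR) and the low-affinity receptor Fcgr4 at 10.1, 5.44 and 8.37 and 51.6 and 61.7 CPM (log2FC 2.83 ± 0.24 SE, adjusted p = 0.000136 by edgeR). No control mouse reached the level of a dual mouse for any of these genes. Of the 11 genes, 10 were still higher, and Ncf1, the p47 organizer of the oxidase, was higher only under dual treatment (34.6, 24.5 and 34.4 and 122 and 112 CPM, 42.7, 62.9 and 42.8 CPM in LPS mice). Ncf1 had a log2FC of 1.91 (adjusted p = 0.000337 by edgeR) against control and of 1.24 (adjusted p = 0.000516 by edgeR) against LPS.

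Acute-phase proteins remained raised but at a lower height than after LPS alone. Of 21 tested genes 15 were higher and 0 lower, all 15 still higher, with a median log2FC of 2.41 in dual and 4.42 in LPS mice, and 12 higher and 1 lower with dual mouse 2 left out, 17 higher with dual mouse 5 left out, and 1 lower with LPS mouse 7 left out. In 20 of the 21 the level was higher in mouse 2. Serum amyloid A3 (Saa3, chr7:46361422-46365576) rose from 7.34, 5.26 and 19.6 CPM in control to 1762 and 1245 CPM in dual mice (log2FC 7.13 ± 0.58 SE, adjusted p = 0.000103 by edgeR), and Saa1 from 0.343, 0.188 and 0.276 to 25 and 13.9 CPM (log2FC 6.15 ± 0.48 SE, adjusted p = 8.11e-05 by edgeR). Haptoglobin (Hp) stood at 551, 813 and 908 and 2738 and 1712 CPM (log2FC 1.55 ± 0.24 SE, adjusted p = 0.00288 by edgeR), the metal reductase Steap4 at 14.6, 14.9 and 11.9 and 121 and 79.3 CPM (log2FC 2.86 ± 0.20 SE, adjusted p = 4.03e-05 by edgeR) and orosomucoid 1 (Orm1) at 0.44, 0.986 and 0.322 and 32.9 and 5.31 CPM (log2FC 5.02 ± 0.74 SE, adjusted p = 0.00221 by edgeR). The dual mice exceeded all control mice in each case, and Orm1 depended most on dual mouse 2, without which its log2FC was 3.15. Of the windows of 150 bases in Saa1, 1.80% also occur in another gene, so a small part of its reads may belong to Saa2.

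Monocyte genes were a second block that was raised. Of 18 tested genes 13 were higher and 0 lower, 10 still higher and 3 only under dual treatment, with a median log2FC of 3.14 in dual and 1.82 in LPS mice (14 and 13 higher with dual mouse 2 or dual mouse 5 left out). Their sum was 1896, 1581 and 2006 CPM in control, 2128, 1927 and 1300 CPM in LPS and 2462 and 3713 CPM in dual mice, of which Chil3, also a gene of alveolar macrophages, was the most abundant per length. Ly6c2, the surface mark of classical monocytes, stood at 5.77, 6.2 and 8.83 and 80.4 and 79.3 CPM (log2FC 3.52 ± 0.24 SE, adjusted p = 3.95e-05 by edgeR), the membrane protein Ifitm6 at 3.52, 1.97 and 4.37 and 99.3 and 107 CPM (log2FC 4.97 ± 0.30 SE, adjusted p = 2.98e-05 by edgeR) and Ms4a6c at 4.5, 4.22 and 3.54 and 51.5 and 50.5 CPM (log2FC 3.64 ± 0.26 SE, adjusted p = 4.81e-05 by edgeR). Control and dual mice did not overlap. F13a1, the A chain of coagulation factor XIII (chr13:37051152-37234277, minus strand), was among the genes higher only under dual treatment. It measured 8.32, 11.4 and 10.7 CPM in control, 13.2, 16.4 and 12.7 CPM in LPS and 96.8 and 110 CPM in dual mice (log2FC 3.35 ± 0.16 SE, adjusted p = 9.39e-06 by edgeR, and log2FC 2.87 ± 0.16 SE, adjusted p = 3.12e-06 by edgeR against LPS). Lst1, a gene of myeloid cells in the MHC region, stood at 2.1, 1.5 and 2.48 CPM in control, 2.37, 3.87 and 2.34 CPM in LPS and 12.9 and 30.8 CPM in dual mice (log2FC 3.43 ± 0.39 SE, adjusted p = 0.000582 by edgeR).

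Macrophage genes were another group with changes found only under dual treatment. Of 28 tested genes 14 were higher and 0 lower, 6 still higher and 7 only under dual treatment, with a median log2FC of 1.29 in dual and -0.10 in LPS mice (14 and 13 higher with dual mouse 2 or dual mouse 5 left out). The sum was 2748, 2496 and 2600 CPM in control, 4875, 4457 and 3879 CPM in LPS and 4281 and 4110 CPM in dual mice, so that the summed level overlapped that of LPS mice, and Apoe was the most abundant gene per length. The complement genes C1qa, C1qb and C1qc, which sit side by side on chromosome 4, moved as a unit. C1qa stood at 29.3, 20.3 and 27.1 CPM in control, 19.6, 18.7 and 17.4 CPM in LPS and 122 and 109 CPM in dual mice (log2FC 2.17 ± 0.15 SE, adjusted p = 3.95e-05 by edgeR, and log2FC 2.64 ± 0.15 SE, adjusted p = 3.71e-06 by edgeR against LPS). C1qb was at 35.1, 27.2 and 38.3 and 184 and 169 CPM (log2FC 2.40 ± 0.15 SE, adjusted p = 2.98e-05 by edgeR) and C1qc at 32.1, 20.7 and 30 and 143 and 114 CPM (log2FC 2.22 ± 0.19 SE, adjusted p = 0.000135 by edgeR). Every dual value was more than 2-fold above every control value and every LPS value for these genes. The scavenger receptor Cd163 (9, 7.98 and 6.12 and 39.1 and 21.5 CPM, log2FC 1.98 ± 0.30 SE, adjusted p = 0.00253 by edgeR), the adhesion receptor Adgre1, known as F4/80 (14.9, 12.1 and 16.9 and 42.2 and 70.7 CPM, log2FC 1.95 ± 0.30 SE, adjusted p = 0.00256 by edgeR), and the lysosomal protein Cd68 (31.6, 22 and 31.6 and 82.8 and 80.7 CPM, log2FC 1.53 ± 0.18 SE, adjusted p = 0.000784 by edgeR) were likewise higher only under dual treatment. The scavenger receptor Msr1 was still higher and beyond LPS, at 5.97, 3.94 and 6.71 CPM in control, 13.5, 16.1 and 7.93 CPM in LPS and 128 and 57 CPM in dual mice (log2FC 4.06 ± 0.39 SE, adjusted p = 0.000222 by edgeR). Among 16 tested genes of alveolar macrophages 2 were higher (4 higher and 1 lower without dual mouse 5), both only under dual treatment: the scavenger receptor Marco (44.9, 18.1 and 27.8 and 159 and 125 CPM, log2FC 2.23 ± 0.35 SE, adjusted p = 0.00321 by edgeR) and the ribonuclease Ear6 (0.636, 0.563 and 0.506 and 6.67 and 8.03 CPM, log2FC 3.68 ± 0.28 SE, adjusted p = 7.49e-05 by edgeR). In the complement list as a whole 6 of 22 genes were higher and 0 lower.

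The inducible nitric oxide synthase Nos2 stood at 2.79, 2.53 and 3.82 and 8.31 and 7.9 CPM (log2FC 1.41 ± 0.23 SE, adjusted p = 0.0035 by edgeR) and the itaconate enzyme Acod1 at 8.86, 6.52 and 7.45 and 57.1 and 35.1 CPM (log2FC 2.60 ± 0.24 SE, adjusted p = 0.000186 by edgeR). For both genes the dual mice were above the control range, and Nos2 was below the 31.1, 22.7 and 21.4 CPM of LPS mice (log2FC -1.63 ± 0.23 SE, adjusted p = 0.000271 by edgeR).

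Among 19 tested CC chemokines 8 were higher and 2 lower, and among 15 CXC chemokines 6 were higher and 0 lower. Against LPS, 9 of the CC and 10 of the CXC chemokines were called lower. Among the monocyte attractants, Ccl2 stood at 4.36, 6.81 and 4.18 CPM in control, 145, 50.4 and 49.2 CPM in LPS and 57.8 and 35.9 CPM in dual mice (log2FC 3.19 ± 0.48 SE, adjusted p = 0.00252 by edgeR) and Ccl7 at 1.03, 3.85 and 2.16, 29.8, 15.6 and 9.55 and 28.1 and 16 CPM (log2FC 3.22 ± 0.55 SE, adjusted p = 0.00454 by edgeR). In the same order, Ccl12 stood at 0.979, 0.751 and 0.92, 13.4, 14.1 and 6.03 and 15.5 and 12.6 CPM (log2FC 3.99 ± 0.37 SE, adjusted p = 0.000186 by edgeR) and Ccl9 at 15, 12.4 and 13.7, 115, 136 and 49.5 and 183 and 79.4 CPM (log2FC 3.26 ± 0.43 SE, adjusted p = 0.00118 by edgeR). Dual mice were above control for these 4, and the direct test did not call them different from LPS mice. The B-cell attractant Cxcl13 measured 9.15, 2.35 and 2.81 CPM in control, 34.7, 59.7 and 41.7 CPM in LPS and 156 and 53.7 CPM in dual mice (log2FC 4.46 ± 0.59 SE, adjusted p = 0.00124 by edgeR). The neutrophil attractant Cxcl3 stood at 0.245, 0.422 and 0.874 CPM in control, 75, 59.7 and 47.5 CPM in LPS and 4.99 and 2.06 CPM in dual mice (log2FC 2.75 ± 0.49 SE, adjusted p = 0.00602 by edgeR), and Cxcl1, another one, at 2.89, 4.41 and 4.74, 338, 75.2 and 153 and 29.1 and 12.6 CPM (log2FC 2.37 ± 0.60 SE, adjusted p = 0.0261 by edgeR). Dual values lay above control and below LPS for both, and Cxcl1 was not called without dual mouse 2 (log2FC 1.61), nor without any 1 of the control mice. With dual mouse 2 left out the CXC list had 4 higher genes, with dual mouse 5 left out 5, and the CC list had 6 and 8, with 2 lower each time. Without control mouse 1, 2 or 4 the CXC list had 3, 3 and 4 higher genes, and the CC list had 1 lower gene each time.

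Of 21 tested chemokine receptors 5 were higher and 3 lower (5 and 0 without dual mouse 2, 6 and 3 without dual mouse 5, and 1 lower without any 1 of the control mice). Ccr1 was still higher (8.17, 6.57 and 7.5 and 57.2 and 31.1 CPM, log2FC 2.57 ± 0.26 SE, adjusted p = 0.00029 by edgeR). Of 36 tested cytokine receptors 13 were higher and 0 lower (1 lower without dual mouse 5), among them the shared beta chain Csf2rb (27.5, 25.3 and 29 and 93.7 and 84 CPM, log2FC 1.71 ± 0.16 SE, adjusted p = 0.00018 by edgeR) and the tumor necrosis factor receptor Tnfrsf1b (44.6, 40.4 and 42.7 and 102 and 163 CPM, log2FC 1.64 ± 0.18 SE, adjusted p = 0.000502 by edgeR). In each of these 3 genes both dual mice exceeded the controls. Of 24 tested cytokines 7 were higher and 0 lower, with 3 higher without dual mouse 2, and 7 higher and 1 lower without dual mouse 5. Il1b measured 12.2, 10.7 and 9.79 CPM in control and 34.7 and 60 CPM in dual mice (log2FC 2.12 ± 0.22 SE, adjusted p = 0.000351 by edgeR), below the 122, 105 and 90.8 CPM of LPS mice. The direct test called Il1b lower than in LPS mice (log2FC -1.16 ± 0.22 SE, adjusted p = 0.00163 by edgeR), though not without dual mouse 2 (-0.84). The receptor blocker Il1rn stood at 9.2, 6.38 and 6.48 and 20.2 and 17.5 CPM (log2FC 1.36 ± 0.23 SE, adjusted p = 0.00473 by edgeR).

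In LPS sensing 5 of 20 genes were higher and 0 lower. The LPS co-receptor Cd14 rose from 40.2, 45 and 47.5 to 174 and 107 CPM (log2FC 1.67 ± 0.24 SE, adjusted p = 0.00203 by edgeR), against 1036, 719 and 629 CPM in LPS mice. Tlr1, a receptor for bacterial lipopeptides, was higher only under dual treatment, at 3.18, 2.72 and 2.16 CPM in control, 1.19, 1.91 and 1.28 CPM in LPS and 15.4 and 17.5 CPM in dual mice (log2FC 2.61 ± 0.25 SE, adjusted p = 0.000222 by edgeR). Feedback inhibitors of inflammation had 8 of 19 higher and 0 lower (5 without dual mouse 2, 7 without dual mouse 5), led by the ubiquitin editor Tnfaip3 (25.2, 26.1 and 29 and 152 and 73.6 CPM, log2FC 2.08 ± 0.30 SE, adjusted p = 0.00187 by edgeR). The inflammasome list had 6 of 13 higher and 0 lower, with pyrin (Mefv, 1.13, 1.08 and 1.15 and 13.2 and 18.6 CPM, log2FC 3.82 ± 0.21 SE, adjusted p = 1.83e-05 by edgeR) and the adaptor Pycard (3.28, 3.43 and 4.87 and 28.3 and 19.8 CPM, log2FC 2.64 ± 0.25 SE, adjusted p = 0.000214 by edgeR) above their LPS level of 8.19, 8.55 and 8.15 and 7.89, 11.7 and 9.32 CPM. Control and dual values did not overlap for any of these genes. Of Mefv and Pycard, the direct test called Pycard higher than in LPS mice (log2FC 1.32 ± 0.24 SE, adjusted p = 0.00127 by edgeR) and did not call Mefv.

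**Figure D3:**
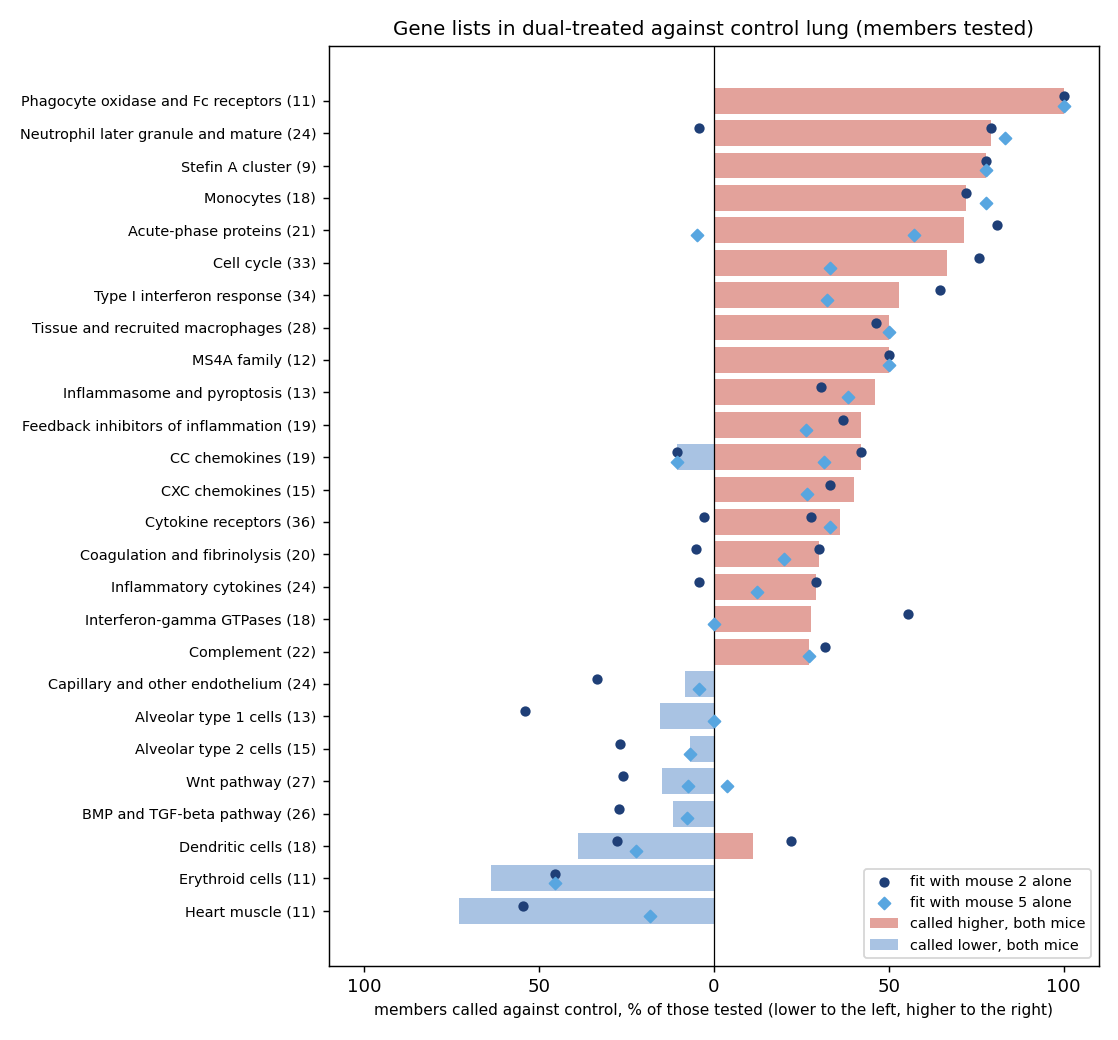
Share of tested genes called higher or lower in dual mice against control, for 26 gene lists. Bars use both dual mice, and markers use dual mouse 2 alone or dual mouse 5 alone.

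The response to type I interferon was partly kept and depended on the mouse. Of 34 tested genes 18 were higher and 0 lower, all 18 still higher, with a median log2FC of 1.13 in dual and 3.01 in LPS mice. Without dual mouse 2 there were 11 higher genes, without dual mouse 5 22, and without any 1 of the control mice 14. In 33 of the 34 genes the level was higher in mouse 2, and the sum was 957, 1069 and 949 CPM in control, 11180, 8098 and 7511 CPM in LPS and 2807 and 1871 CPM in dual mice. The regulator Irf7 stood at 23.4, 28.2 and 23.3 CPM in control and 330 and 193 CPM in dual mice (log2FC 3.39 ± 0.22 SE, adjusted p = 3.95e-05 by edgeR), the nucleic acid sensor Zbp1 at 4.65, 6.81 and 7.08 and 88.5 and 51.9 CPM (log2FC 3.50 ± 0.27 SE, adjusted p = 7.51e-05 by edgeR) and the oligoadenylate synthase Oas2 at 9.05, 8.87 and 10.2 and 67.5 and 52.9 CPM (log2FC 2.68 ± 0.13 SE, adjusted p = 9.39e-06 by edgeR). Both dual mice were above all controls in each. Oas2 was not called different from LPS mice (82.4, 76.5 and 75.1 CPM), whereas Irf7 was called lower (824, 740 and 631 CPM, log2FC -1.49 ± 0.23 SE, adjusted p = 0.000424 by edgeR). Of all tested genes 5.25% were called higher, and the share in the MHC class I list, given next, was near that value. Guanylate-binding and other proteins induced by interferon gamma had 5 of 18 higher and 0 lower (0 without dual mouse 2, 10 without dual mouse 5, 3 without control mouse 1), and the MHC class I list had 1 of 19 (2 without dual mouse 5 or control mouse 1), the regulator Nlrc5 (19.8, 17.9 and 22 and 54.5 and 43 CPM, log2FC 1.29 ± 0.18 SE, adjusted p = 0.00168 by edgeR). The MHC class II list had 0 of 11 called by edgeR, 0 at an unadjusted p below 0.05 with a fold over 2 and 0 by DESeq2, with 1 lower without dual mouse 2 and 1 higher without dual mouse 5.

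Promoters of 300 bases were scanned for the motif GAAA, any 2 bases and GAAA again, the core of the element bound by interferon regulatory factors, on both strands of build GRCm38.p6 (RefSeq). A match describes the sequence only. At least 1 match occurred in 14 of the 24 interferon-list genes with a promoter (58.3%), in 9 of 13 called higher (69.2%) and in 5 of 11 not called (45.5%). Among all still higher genes it occurred in 49 of 461 (10.6%), among those higher only under dual treatment in 7 of 136 (5.15%), among all tested genes in 483 of 12694 (3.80%) and among all promoters in 1131 of 32851 (3.44%). The promoters of 3 genes are printed with the motif in capitals, where overlapping matches run together: Oas3 at chr5:120777610-120777909, minus strand, with 1 match, Isg15 at chr4:156200769-156201068, minus strand, with 3 matches, and Ddx60 at chr8:61927837-61928136, plus strand, with 2 matches.
Oas3: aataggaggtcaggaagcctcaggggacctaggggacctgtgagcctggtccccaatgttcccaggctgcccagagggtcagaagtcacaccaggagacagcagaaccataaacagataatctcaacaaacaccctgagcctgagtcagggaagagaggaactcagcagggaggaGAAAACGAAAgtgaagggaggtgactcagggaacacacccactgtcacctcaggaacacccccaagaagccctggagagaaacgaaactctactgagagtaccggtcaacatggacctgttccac
Isg15: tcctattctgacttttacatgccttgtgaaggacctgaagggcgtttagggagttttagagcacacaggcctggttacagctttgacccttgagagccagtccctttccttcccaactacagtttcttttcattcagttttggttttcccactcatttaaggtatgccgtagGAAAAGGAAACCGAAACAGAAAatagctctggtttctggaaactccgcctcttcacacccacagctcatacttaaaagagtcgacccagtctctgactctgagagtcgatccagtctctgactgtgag
Ddx60: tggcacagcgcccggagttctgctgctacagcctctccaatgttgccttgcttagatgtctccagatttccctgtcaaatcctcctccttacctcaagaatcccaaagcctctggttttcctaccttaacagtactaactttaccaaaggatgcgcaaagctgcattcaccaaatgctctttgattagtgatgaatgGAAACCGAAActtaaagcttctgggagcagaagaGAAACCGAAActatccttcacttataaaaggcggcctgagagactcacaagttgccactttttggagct
Oas3, an oligoadenylate synthase, stood at 1.91, 1.5 and 2.44 CPM in control and 40.7 and 21.5 CPM in dual mice (log2FC 3.99 ± 0.29 SE, adjusted p = 5.44e-05 by edgeR), the ubiquitin-like modifier Isg15 at 17.9, 18.9 and 15.3 and 91 and 37.1 CPM (log2FC 1.88 ± 0.35 SE, adjusted p = 0.00669 by edgeR) and the helicase Ddx60 at 4.6, 6.29 and 4.83 and 17.4 and 12 CPM (log2FC 1.49 ± 0.22 SE, adjusted p = 0.0023 by edgeR). Both dual mice were above the controls for all 3, and without dual mouse 2 the log2FC of Isg15 was 1.07.

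Cell cycle genes were also raised. Of 33 tested genes 22 were higher and 0 lower, 16 still higher and 2 only under dual treatment, with a median log2FC of 1.44 in dual and 1.26 in LPS mice. Without dual mouse 2 there were 11 higher genes, without dual mouse 5 25, and without control mouse 1, 2 or 4 there were 19, 20 and 18. In 32 of the 33 the level was higher in mouse 2. The proliferation mark Mki67 stood at 7.68, 6.66 and 7.27 CPM in control and 57.9 and 29.3 CPM in dual mice (log2FC 2.60 ± 0.29 SE, adjusted p = 0.00049 by edgeR), the replication helicase subunit Mcm5 at 5.73, 6.34 and 6.71 and 34.9 and 26.3 CPM (log2FC 2.29 ± 0.21 SE, adjusted p = 0.000164 by edgeR) and cyclin B1 (Ccnb1) at 0.489, 1.27 and 0.782 and 8.03 and 5.23 CPM (log2FC 2.96 ± 0.40 SE, adjusted p = 0.00137 by edgeR). Dual values were above all control values for the 3 genes. Which cells were dividing cannot be told from bulk RNA.

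Of 15 tested genes of NK and cytotoxic cells 4 were higher and 0 lower (6 without dual mouse 2, 4 without dual mouse 5), with all 15 higher in mouse 5 than in mouse 2. Granzyme B (Gzmb) stood at 1.32, 0.939 and 1.38 and 17.7 and 27 CPM (log2FC 4.20 ± 0.41 SE, adjusted p = 0.000243 by edgeR) and perforin (Prf1) at 2.2, 1.6 and 1.84 and 7.53 and 12 CPM (log2FC 2.37 ± 0.33 SE, adjusted p = 0.00178 by edgeR). Metalloproteinases and their inhibitors had 5 of 17 genes higher and 1 lower (0 lower without dual mouse 2 or any 1 of the control mice), and NRF2 targets 2 of 17 higher and 0 lower (2 lower without control mouse 1). Coagulation genes had 6 of 20 higher and 0 lower (1 lower without dual mouse 5), and glucocorticoid targets 5 of 16 higher and 0 lower (3 higher without dual mouse 2, and 1 lower without dual mouse 2 or 5). The metalloproteinase inhibitor Timp1 rose from 7.39, 5.63 and 9.52 to 74.5 and 41.9 CPM (log2FC 2.95 ± 0.30 SE, adjusted p = 0.000321 by edgeR), heme oxygenase 1 (Hmox1) from 47.2, 64.2 and 46.9 to 266 and 169 CPM (log2FC 2.04 ± 0.22 SE, adjusted p = 0.000397 by edgeR) and the glucocorticoid-induced chaperone partner Fkbp5 from 99.7, 66.5 and 70.4 to 282 and 174 CPM (log2FC 1.53 ± 0.23 SE, adjusted p = 0.00263 by edgeR). Coagulation factor X (F10) was at 7.88, 6.57 and 11.8 and 57.6 and 54.5 CPM (log2FC 2.68 ± 0.23 SE, adjusted p = 0.000123 by edgeR), beyond the 22.8, 28.7 and 20.9 CPM of LPS mice. None of these 6 genes had a dual value inside the control range. Of 16 genes of endothelial adhesion 4 were higher and 1 lower (2 lower without dual mouse 2, dual mouse 5 or control mouse 4). The endothelial adhesion molecule Sele (1.13, 0.939 and 0.92 and 38.1 and 2.46 CPM, log2FC 4.34 ± 0.86 SE, adjusted p = 0.00939 by edgeR) was high mainly in dual mouse 2, without which its log2FC was 1.27. Wnt9b, a secreted Wnt protein, was nearly absent elsewhere, at 0.147, 1.31 and 0.184 CPM in control, 0, 0.462 and 0.279 CPM in LPS and 16.3 and 9.75 CPM in dual mice (log2FC 4.55 ± 0.79 SE, adjusted p = 0.00498 by edgeR).

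Cyp1a1, a monooxygenase of small aromatic molecules, was still lower (log2FC -4.08 ± 0.44 SE, adjusted p = 0.000436 by edgeR). Because its level in dual mice (1.45 and 2.02 CPM against 16.2, 35.2 and 36.8 CPM in control) lay above that in LPS mice (0.119, 0.116 and 0.391 CPM), it was called nearer to control (log2FC 3.01 ± 0.59 SE, adjusted p = 0.00193 by edgeR against LPS). The lectin Mgl2, made by macrophages and dendritic cells, stood at 15.1, 16.1 and 17.2 CPM in control, 1.01, 1.91 and 1.51 CPM in LPS and 1.23 and 1.98 CPM in dual mice (log2FC -3.33 ± 0.31 SE, adjusted p = 0.000188 by edgeR). The direct test did not call Mgl2 different from LPS mice (log2FC 0.12 ± 0.31 SE, adjusted p = 0.756 by edgeR). Clec9a, the receptor for dead cells on cross-presenting dendritic cells, fell from 64.6, 56.6 and 61.4 to 25.5 and 30 CPM (log2FC -1.13 ± 0.14 SE, adjusted p = 0.000743 by edgeR) but was far above the 0.534, 0.52 and 0.782 CPM of LPS mice (log2FC 5.48 ± 0.18 SE, adjusted p = 3.18e-07 by edgeR against LPS). Of 18 tested genes of dendritic cells 2 were higher and 7 lower, with a median log2FC of -0.77 in dual and -0.71 in LPS mice (0 higher and 4 lower without dual mouse 2, 4 higher and 5 lower without dual mouse 5, and 4 lower without any 1 of the control mice). The 2 higher genes became 1 without control mouse 1, LPS mouse 6 or LPS mouse 7 and 0 without control mouse 2 or 4. The endothelin receptor Ednrb (93.5, 107 and 98.8 and 22.7 and 46.6 CPM, log2FC -1.53 ± 0.25 SE, adjusted p = 0.00382 by edgeR) and the clock gene Npas2 (9.93, 11 and 12.6 and 3.59 and 2.9 CPM, log2FC -1.78 ± 0.21 SE, adjusted p = 0.000753 by edgeR) were still lower, with all dual values below all control values. The retinol esterase Lrat (130, 126 and 144 and 6.13 and 43.5 CPM, log2FC -2.43 ± 0.60 SE, adjusted p = 0.0244 by edgeR) and Ankrd63, a gene of unknown function (44.5, 51.6 and 53.3 and 1.72 and 9.48 CPM, log2FC -3.15 ± 0.53 SE, adjusted p = 0.00415 by edgeR), were much lower in mouse 2 than in mouse 5. Without dual mouse 5 their log2FC was -4.47 and -4.88, while mouse 5 against the control mean gave -1.61 and -2.38. Lrat was not called without control mouse 1 (-2.44), control mouse 2 (-2.47) or control mouse 4 (-2.40). Thrsp, a regulator of fat synthesis (8.32, 71.3 and 16 and 3.49 and 2.5 CPM, log2FC -3.41 ± 0.92 SE, adjusted p = 0.0342 by edgeR), was not called without control mouse 2 (log2FC -2.02), dual mouse 2 (-3.69) or dual mouse 5 (-3.21).

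Of 27 tested genes of the Wnt pathway 4 were lower and 0 higher, all 4 still lower (1 higher and 2 lower without dual mouse 2, 7 lower without dual mouse 5). The feedback regulator Axin2 stood at 44.7, 46 and 41.3 and 17.2 and 21.3 CPM (log2FC -1.20 ± 0.14 SE, adjusted p = 0.000582 by edgeR) and the agonist Rspo1 at 38.2, 32.7 and 29.9 and 8.94 and 15 CPM (log2FC -1.49 ± 0.23 SE, adjusted p = 0.00298 by edgeR), with no overlap between groups. Wnt9b, the Wnt protein called higher only under dual treatment (log2FC 4.55 ± 0.79 SE), was not a member of this list. With scaling by library size alone the BMP and TGF-beta list, given next, had 1 lower gene. The BMP and TGF-beta list had 3 of 26 lower and 0 higher (7 lower without dual mouse 5).

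Red-cell genes were among those lower only under dual treatment. Of 11 tested genes of erythroid cells 7 were lower and 0 higher, all 7 only under dual treatment. The median log2FC was -2.61 in dual and -0.06 in LPS mice. In dual mice it was -2.25 with genes of at most 3 counts in every mouse of a group set to their bound. There were 5 lower genes without dual mouse 2 or dual mouse 5, and 5, 5 and 6 without control mouse 1, 2 or 4. Their sum was 1738, 3921 and 2791 CPM in control, 3313, 1897 and 1485 CPM in LPS and 428 and 383 CPM in dual mice, and Hba-a1 was the most abundant gene per length. The beta globin Hbb-bs (chr7:103475730-103482989, minus strand) stood at 856, 2024 and 1454 CPM in control and 206 and 184 CPM in dual mice (log2FC -2.89 ± 0.44 SE, adjusted p = 0.00254 by edgeR), the alpha globin Hba-a1 at 613, 1233 and 908 and 156 and 146 CPM (log2FC -2.61 ± 0.36 SE, adjusted p = 0.00156 by edgeR) and the heme enzyme Alas2 at 33.7, 85.2 and 56.3 and 10.9 and 9.66 CPM (log2FC -2.50 ± 0.44 SE, adjusted p = 0.00532 by edgeR). All dual values were below all control and all LPS values. The copies Hbb-bt (19.5 and 18 CPM in dual mice) and Hba-a2 (34 and 23.8 CPM) showed the same picture, but 40.1% of the windows of Hbb-bs and Hbb-bt, 70.9% of those of Hba-a1 and 37.8% of those of Hba-a2 occur in more than 1 gene, so the split of reads between copies is uncertain. The heart-muscle genes described next moved in the same way, with the same order of the control mice (1, then 4, then 2) and low sums in both dual mice, and their part in the result was not tested. Less blood in the tissue and fewer red-cell transcripts per volume of blood cannot be told apart.

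Heart-type muscle genes, which in mouse lung come from the sleeves of the pulmonary veins or from attached heart tissue, had 8 of 11 lower and 0 higher, 6 of them only under dual treatment, with a median log2FC of -1.61. Their sum was 464, 1260 and 721 CPM in control, 647, 1004 and 614 CPM in LPS and 268 and 262 CPM in dual mice, the most abundant gene being Myh6. There were 2 lower genes without dual mouse 2, 6 without dual mouse 5, and 10, 6 and 6 without control mouse 1, 2 or 4. The atrial light chain Myl4 stood at 50.1, 125 and 73.4 and 21.3 and 18.3 CPM (log2FC -2.07 ± 0.37 SE, adjusted p = 0.00575 by edgeR) and Mybphl, an atrial myosin-binding protein, at 4.99, 11.5 and 7.04 and 0.545 and 1.23 CPM (log2FC -3.13 ± 0.53 SE, adjusted p = 0.00441 by edgeR). Cardiac actin (Actc1, 46.6, 169 and 93.4 and 10.5 and 20.2 CPM, log2FC -2.75 ± 0.49 SE, adjusted p = 0.00608 by edgeR) was still lower and the mitochondrial creatine kinase Ckmt2 (5.63, 26.7 and 15.5 and 2 and 2.42 CPM, log2FC -2.85 ± 0.57 SE, adjusted p = 0.0102 by edgeR) lower only under dual treatment, but without dual mouse 2 neither was called (log2FC -2.38 and -2.75). Dual values lay below the control range for all 4 genes. How much vein or heart was in each piece of lung was not recorded, and its part in the result was not tested.

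Of all tested genes 1.90% were called lower. In lists as small as those given next, 1 lower gene already exceeds that share, so the share cannot show an excess. A few lower genes were found in the lists of smooth muscle, endothelium, alveolar type 1 and type 2, club cells and fibroblasts. The median log2FC of these 6 lists was -0.54, -0.37, -0.71, -0.50, -0.47 and -0.26, against 0.004 for all tested genes. The T-cell list had 2 of 17 genes lower and a median log2FC of -0.85. Without control mouse 1 or 4 the T-cell list had 1 lower gene, and by DESeq2 4. Genes of mast cells, basophils and eosinophils had 1 of 9 lower. Their median log2FC was -1.53, or -1.42 with genes of at most 3 counts in every mouse of a group set to their bound. The tip-cell gene Esm1 of endothelium was lower only under dual treatment (46.5, 34 and 23.2 CPM in control, 31.8, 28.1 and 23.6 CPM in LPS and 5.95 and 4.79 CPM in dual mice, log2FC -2.69 ± 0.29 SE, adjusted p = 0.000468 by edgeR), as was the smooth-muscle gene Cnn1 (22.5, 33.2 and 25.5 and 5.36 and 6.5 CPM, log2FC -2.19 ± 0.19 SE, adjusted p = 0.000141 by edgeR), which had no overlap between control and dual mice, like Esm1. Of 14 genes of smooth muscle and pericytes 0 were higher and 3 lower. Of 24 genes of capillary and other endothelium 0 were higher and 2 lower, with 1 lower without dual mouse 2 or any 1 of the control mice and 8 without dual mouse 5. Alveolar type 1 genes had 2 of 13 lower (0 without dual mouse 2, 7 without dual mouse 5, 1 without control mouse 1 or 2) and alveolar type 2 genes 1 of 15 (4 without dual mouse 5). Club-cell genes had 2 of 14 lower (3 also higher without dual mouse 5) and fibroblast genes 3 lower and 1 higher of 23 (1 lower without dual mouse 2, 5 lower and 2 higher without dual mouse 5). By edgeR, ciliated-cell genes had 0 of 15 called and B-cell genes 0 of 14, in each case with 0 at an unadjusted p below 0.05 with a fold over 2 and 0 by DESeq2. Leaving out dual mouse 5 gave 1 lower ciliated-cell gene and 1 higher B-cell gene, and leaving out dual mouse 2 gave 1 lower B-cell gene. The club-cell secretoglobin Scgb3a2 was lower only under dual treatment (334, 507 and 454 and 125 and 213 CPM, log2FC -1.36 ± 0.25 SE, adjusted p = 0.00701 by edgeR), below the 966, 815 and 773 CPM of LPS mice.

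**Figure D4:**
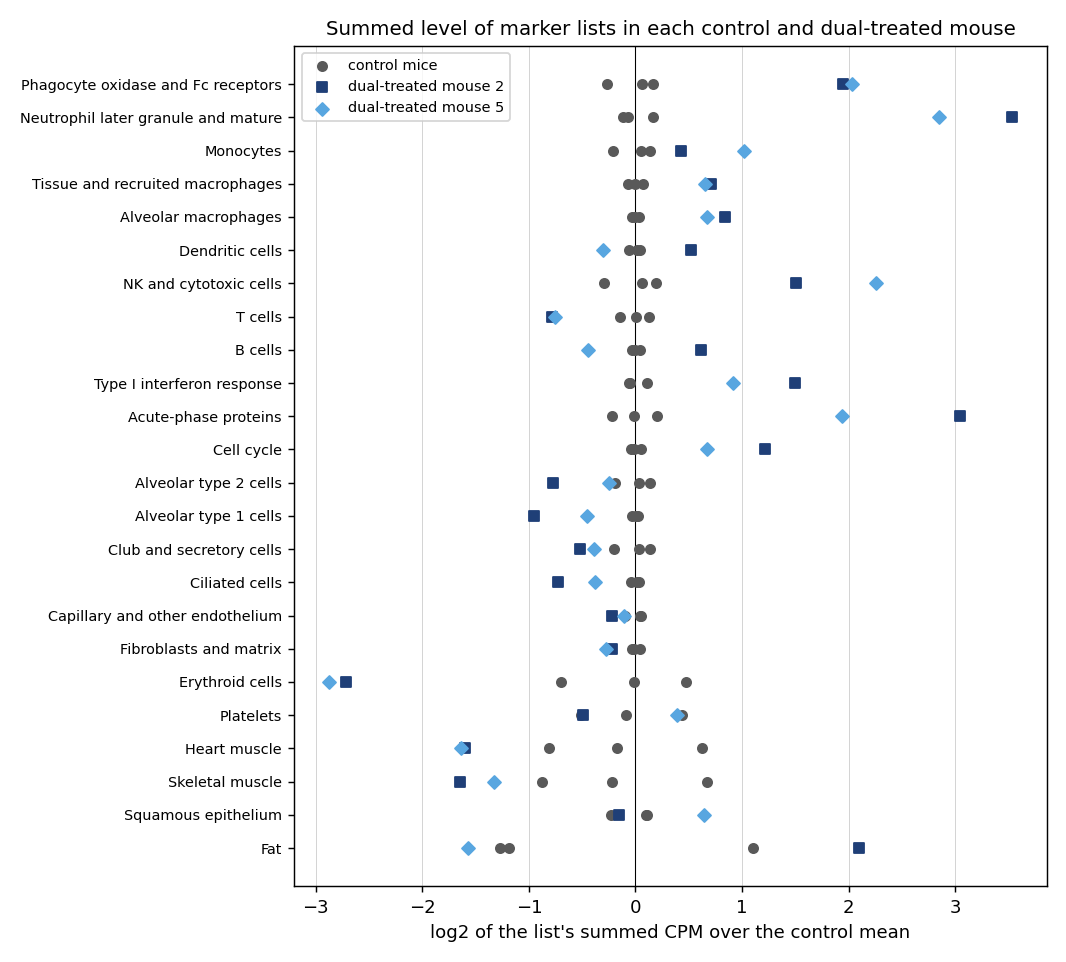
Summed CPM of 24 gene lists in each control and dual mouse, as log2 of the ratio to the control mean.

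A few genes went against the direction of LPS. Adgre4, an adhesion receptor of monocytes, was at 1.91, 1.36 and 0.966 CPM in control, 0.415, 0.404 and 0.447 CPM in LPS and 15.2 and 48.2 CPM in dual mice (log2FC 4.49 ± 0.46 SE, adjusted p = 0.000323 by edgeR). The lectin Clec4a3 stood at 7.34, 5.59 and 5.33, 1.42, 2.54 and 1.45 and 25.3 and 45.4 CPM (log2FC 2.54 ± 0.29 SE, adjusted p = 0.000642 by edgeR) and the complement receptor C3ar1 at 5.97, 5.21 and 5.93, 3.8, 1.68 and 2.34 and 33.9 and 23.5 CPM (log2FC 2.33 ± 0.28 SE, adjusted p = 0.000802 by edgeR). In all 3 the dual mice were above control and the LPS mice below it. The reverse order held for the airway protein Bpifa1, at 660, 1010 and 567 CPM in control, 1014, 2033 and 1855 CPM in LPS and 258 and 132 CPM in dual mice (log2FC -1.94 ± 0.39 SE, adjusted p = 0.0107 by edgeR), and for Sln, a regulator of the calcium pump of atrial muscle, at 23.4, 40.1 and 24.8, 47, 78.5 and 63 and 9.26 and 7.38 CPM (log2FC -1.82 ± 0.29 SE, adjusted p = 0.0033 by edgeR). Both were highest in LPS mice 6 and 7, which also carried genes of tissue from outside the lung. Squamous epithelium summed to 4.98, 774 and 2155 CPM in LPS, 17.5, 21.9 and 22.1 CPM in control and 18.4 and 32 CPM in dual mice, and skeletal muscle to 51.3, 743 and 1813 CPM in LPS, 32.6, 95.8 and 51.6 CPM in control and 19.2 and 23.9 CPM in dual mice. Their part in the result was not tested.

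Between the dual mice, among the genes most raised in mouse 5 over mouse 2 was the fractalkine receptor Cx3cr1 of patrolling monocytes, at 1.77 and 20.3 CPM against 6.21, 6.1 and 6.71 CPM in control, so that mouse 2 was below and mouse 5 above the control range. Cd300e, another gene of patrolling monocytes, was called higher only under dual treatment (1.13, 1.27 and 1.2 and 3.68 and 20.2 CPM, log2FC 3.31 ± 0.60 SE, adjusted p = 0.00632 by edgeR), and without dual mouse 5 its log2FC was 1.59. Stmn2, a regulator of microtubules (23.2, 29.4 and 33 and 6.13 and 41.7 CPM), and the histone gene H2ac25 (11.5, 8.54 and 10.6 and 1.86 and 8.78 CPM) were below the controls in mouse 2 only, and neither was called. Fat genes differed as well. Their sum was 128, 666 and 136 CPM in control and 1325 and 104 CPM in dual mice, with Cfd the most abundant per length, and all 10 were higher in mouse 2 than in mouse 5. By edgeR 0 of the 10 were called, with 0 at an unadjusted p below 0.05 with a fold over 2, 1 lower by DESeq2, 3 higher and 1 lower without a filter and 1 higher without dual mouse 5. Control mouse 2 and dual mouse 2 were high and the other 3 mice low, so the groups overlapped. Fat attached to the lung pieces was not recorded, and its part in the result was not tested.

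Immunoglobulin genes, looked at after their values had been seen, set mouse 2 apart. The summed level of the constant genes was 267, 260 and 249 CPM in control, 195, 284 and 194 CPM in LPS and 2200 and 158 CPM in dual mice. The mu chain Ighm stood at 59.4, 58.7 and 57.6 CPM in control and 1294 and 69.2 CPM in dual mice (log2FC 3.54 ± 0.82 SE, adjusted p = 0.0181 by edgeR), and without dual mouse 2 its log2FC was 0.21. Ighm was also not called without any 1 of the control mice, although their values lay close together, at 57.6 to 59.4 CPM. The alpha chain Igha was lower in both mice, at 91.8, 83.2 and 81.2 and 23.2 and 18.2 CPM (log2FC -2.04 ± 0.16 SE, adjusted p = 8.69e-05 by edgeR), below the 47.8, 61.9 and 47.1 CPM of LPS mice. Of 218 variable genes in the files 93 passed the filter and were tested. All 93 were higher in mouse 2 than in mouse 5, and 9 were called higher, 7 only under dual treatment. Some passed the filter with the help of their level in mouse 2, such as Igkv1-122 (0.685, 0 and 0.046 and 1.5 and 0 CPM). The tally is therefore not independent of that mouse, and these genes are not replicates. The largest changes were in Ighv11-2, at 0.294, 0.188 and 0.138 CPM in control, 0.178, 0.635 and 0.335 CPM in LPS and 54.4 and 2.15 CPM in dual mice (log2FC 7.06 ± 1.19 SE, adjusted p = 0.00431 by edgeR), and in Igkv14-126, at 0.587, 0.469 and 0.46, 0.831, 0.809 and 1.84 and 134 and 6.72 CPM (log2FC 7.10 ± 1.09 SE, adjusted p = 0.00274 by edgeR). Both dual mice exceeded all other mice for these genes, and without dual mouse 2 the log2FC was 3.32 and 3.69.

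The shares of these genes among their kind were high in both dual mice. Ighv11-2 made up 0.814%, 0.759% and 0.615% of the heavy-chain variable counts in control mice, 1.1%, 1.84% and 1.41% in LPS mice, 20.6% in dual mouse 2 (95% Wilson interval 19.6 to 21.6%) and 13.4% in dual mouse 5 (10.2 to 17.2%). Igkv14-126 made up 1.09%, 1.1% and 1.2% of the kappa variable counts in control mice, 2.89%, 1.53% and 5.6% in LPS mice, 26.2% in dual mouse 2 (25.4 to 27%) and 22% in dual mouse 5 (19 to 25.2%). The intervals cover counting error only. These variable genes are known as a pair from B-1 cells that bind phosphatidylcholine, a lipid of cell membranes and of surfactant. Other variable genes were high in mouse 2 alone: Igkv9-120 at 12.4 and 0.263 CPM, Igkv4-91 at 29.1 and 0.746 CPM, Igkv1-117 at 52.5 and 1.27 CPM and Igkv1-135 at 22.9 and 0.395 CPM, against 0.147, 0.657 and 0.276, 1.17, 0.422 and 0.598, 3.72, 3.05 and 4.37 and 1.62, 1.08 and 2.16 CPM in control mice. The protease inhibitor Serpina3k was high in mouse 2 as well (0.343, 0 and 0.138 and 13.7 and 0.395 CPM). With both mice Igkv9-120, Igkv4-91 and Serpina3k were called higher, and without dual mouse 2 they were not (log2FC -0.47, 0.003 and 1.25). Igkv9-120 also lost its call without LPS mouse 6 (4.11) and without control mouse 1 (3.74), control mouse 2 (4.85) or control mouse 4 (3.92). Igkv4-91 lost it without control mouse 1 (4.85), 2 (4.07) or 4 (4.19) and Serpina3k without control mouse 2 (4.84) or 4 (5.30). Variable genes resemble each other, so single counts are less certain than sums. The fat genes were high in the same mouse, and their part in the result was not tested.

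Of the 3 deiminase genes that could be tested, 0 were called by edgeR, 1 at an unadjusted p below 0.05 with a fold over 2 and 1 by DESeq2. Padi4, which encodes PAD4, stood at 6.66, 3.47 and 10.6 CPM in control, 4.45, 5.2 and 4.19 CPM in LPS and 11.4 and 23.1 CPM in dual mice (log2FC 1.32 ± 0.41 SE, adjusted p = 0.0578 by edgeR). Both dual mice were above all control and LPS mice, and the direct test called Padi4 higher than in LPS mice (log2FC 1.90 ± 0.42 SE, adjusted p = 0.00371 by edgeR). It was called without control mouse 4 (log2FC 1.74), by DESeq2 (1.30), without a filter (1.32) and with a minimum of 10 counts per library (1.33). Padi2 stood at 2.94, 3.33 and 3.86 and 3.31 and 4.65 CPM (log2FC 0.24 ± 0.26 SE, adjusted p = 0.593 by edgeR), with the dual mice overlapping the controls. RNA levels do not show the activity of the enzyme.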

How the data were processed

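Lung RNA of 3 control mice, 3 LPS mice and 2 dual-treated mice was read from gene counts per library; the files hold 0 columns of other samples. The authors trimmed 150-base read pairs with Trim Galore, checked them with FastQC 0.11.9, aligned them with HISAT2 2.2.1 to GRCm39 and made the deposited counts with featureCounts 2.0.1. Annotation release, strand setting and the counting of reads with several positions are not given in the sources used here, so overlapping, antisense and near-identical genes are uncertain. Files held 55416 genes, 32006 with a count. Of these, 18560 passed filterByExpr and were tested with edgeR 4.0.16 in R 4.3.3 (TMM, quasi-likelihood F test, 1 factor for the 3 groups, all 8 libraries, 5 residual degrees of freedom). Symbols came from GENCODE M39, and 667 identifiers without a match held 0.0533% of counts. Depth was 19061949 to 20908608 counts per library, so 1 CPM (1 count in 1000000) is about 20 counts. Counting error is smaller than the spread between mice (chi-square per degree of freedom 8.755 to 45.24). Genes with at most 3 counts in every mouse of a group were bounded with 3 counts per library. With 3 against 2 mice an exact permutation test cannot go below p = 0.1, so significance rests on variance shared between genes.

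Named genes were the 6 with the largest rise and the 6 with the largest fall among those still changed and among those changed only under dual treatment (mean of at least 5 CPM, no overlap between groups), the 3 of each direction going against LPS, up to 4 called members and the most abundant member of each list, genes the study names, the 6 of each direction differing most between the dual mice, and the deiminases. Further genes were named after their values were seen, and some genes that the rule names are not reported here. The members and lists were chosen with earlier results of these data known. The scripts were tested on simulated data, where 181 of 200 genes given a 4-fold change in the dual group were recovered. The simulation used the spread estimated from these data and gave no change to rare genes. Changes nearer the cutoff were not simulated, so the recovery of such genes is not known. Alternatives were DESeq2 1.42.0, other normalizations, filters and criteria, and leaving out each mouse.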

Additional observations from a re-analysis of the deposited data

How the results depend on the processing

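The counts with both dual mice were 1327 called genes against control (974 higher, 353 lower), 851 still changed (636 higher, 215 lower) and 281 changed only under dual treatment (199 higher, 82 lower). DESeq2 gave 1478, 925 and 304, library size alone 1310, 781 and 329, RLE factors 1336, 868 and 273, no filter 1664, 986 and 401, and at least 10 counts in every library 1081, 681 and 224. With only control and dual libraries 1388 genes were called, and the classes cannot be counted there because they need the LPS mice. Scaling by library size moved the median log2FC of all genes against LPS from 0.06 to 0.383. In no setting was a called gene called in the opposite direction, but the settings share most of their counts and are not independent. Unadjusted p below 0.05 with a fold over 2 gave 637 lower genes, 345 still lower and 430 only under dual treatment (149 lower). A test against a fold change of 2 (glmTreat) is stricter by construction and gave 368 genes (333 higher, 35 lower), 240 still changed (221 and 19) and 63 only under dual treatment (50 and 13).

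Leaving out 1 mouse in turn gave 752 to 1831 called genes (596 to 1120 higher, 156 to 711 lower), 487 to 1230 still changed (400 to 721 higher, 87 to 509 lower) and 169 to 349 only under dual treatment (132 to 259 higher, 37 to 90 lower). The lowest values came without dual mouse 2. Without dual mouse 5 the lower genes (711) and the still lower genes (509) moved, and without control mouse 2 the lower genes (227) and those lower only under dual treatment (50). Removing dual mouse 2 turned the log2FC against LPS to -0.382 for Ighm, -1.165 for Igkv1-117, -1.773 for Igkv1-135, -0.82 for Igkv9-120, -1.109 for Serpina3k and -2.695 for Sele, and that of Igkv9-120 against control to -0.473. These were the lowest of the values with 1 mouse left out. The highest, without dual mouse 5, were 3.846, 4.196, 4.061, 4.705, 3.983 and 1.259 in the same order, and 5.047 for Igkv9-120 against control. For these changes the cause was not tested. A lone dual mouse is assumed to vary like the other groups. No paired analysis was possible because control and dual mice share only mouse number 2, and the numbers only name the mice. Genes with few counts are limited by depth.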
